A study of Homo sapiens with 2 samples.

Results

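GPAT4, PLEKHA3, DDHD1, COL4A3BP and LSR are 5 lipid-handling genes, out of 54261 genes in the count table, that each carry an alternative exon listed by the study as responding to knockdown of the splicing factor SRSF2. They were chosen by the junction reads over those exons in the same 2 libraries, which are not analysed here, and then by their roles in lipid metabolism. Their gene counts are therefore given as a description, with no test. RKO, a human colorectal carcinoma cell line grown in DMEM with fetal bovine serum, received either a negative control siRNA (si-NC, the control library) or one against SRSF2 (si-SRSF2, the knockdown library). Poly(A)-selected RNA of each group was sequenced as 1 library. No difference in gene counts between the 2 libraries has a replicate check, and the variation between transfections is unknown. A gene's count adds up the reads of all its isoforms, so it does not show how often an exon was used. Fewer cells and less RNA per cell cannot be told apart in such bulk samples.

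The 5 genes act at successive stations of the cell's lipid traffic. Glycerolipids are built in the endoplasmic reticulum from glycerol 3-phosphate by way of lysophosphatidic and phosphatidic acid, while ceramide made in the same membrane is carried to the trans-Golgi, where it becomes sphingomyelin and where the lipid phosphatidylinositol 4-phosphate (PI4P) marks the membrane for the carrier proteins. Lipids also enter cells from outside, by receptors that take up lipoproteins. SRSF2 is a serine/arginine-rich protein that binds short C-rich or G-rich stretches in exons and can raise or lower the inclusion of the exon it binds.

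The alternative exons of DDHD1, PLEKHA3, COL4A3BP and LSR are shown because the genes were chosen for them; the GPAT4 exon, chosen in the same way, is described further below without its sequence. They were read from GRCh38 on the transcribed strand, 5′ to 3′, with capitals marking every match to the SRSF2-type tetramers searched, which were CCNG or GGNG and the mixed forms CGNG or GCNG. The DDHD1 exon lies at chr14:53051844-53051927 on the minus strand, that of PLEKHA3 at chr2:178488968-178489014 on the plus strand, that of COL4A3BP at chr5:75399310-75399387 on the minus strand, and that of LSR at chr19:35261925-35261981 on the plus strand.
DDHD1: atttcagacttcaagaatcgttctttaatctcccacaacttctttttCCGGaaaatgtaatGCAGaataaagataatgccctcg
PLEKHA3: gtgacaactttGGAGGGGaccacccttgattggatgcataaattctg
COL4A3BP: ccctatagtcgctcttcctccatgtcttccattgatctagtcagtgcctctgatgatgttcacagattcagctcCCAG
LSR: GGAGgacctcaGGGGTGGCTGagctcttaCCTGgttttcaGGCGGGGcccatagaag

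The exons of DDHD1, COL4A3BP and LSR are coding and keep the reading frame. In GENCODE release 44 the DDHD1 exon of 84 bp is exon 12 of 13 in the reference (MANE Select) transcript, which reads 900 codons with it and 872 without it. It was present in 1 of 14 annotated DDHD1 transcripts and skipped in 9. The COL4A3BP exon of 78 bp is exon 11 of 17, and the reference transcript of this gene, now named CERT1, reads 624 codons with it and 598 without it. The form with this exon is known as Goodpasture antigen-binding protein and the form without it as the ceramide transfer protein CERT, and 7 of 29 annotated transcripts held the exon while 14 skipped it. The LSR exon of 57 bp is exon 4 of 10 and separates forms of 601 and 582 codons; 6 of 14 annotated transcripts held it and 5 skipped it.

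The PLEKHA3 and GPAT4 exons differ from these in that neither length is a multiple of 3 and neither exon belongs to the reference transcript. The PLEKHA3 exon of 47 bp was annotated in 1 of 4 transcripts, a transcript classed as a target of nonsense-mediated decay, the pathway that degrades mRNAs with an early stop codon. Placed between exons 2 and 3 of the reference transcript, it ended the reading frame after 61 codons, in place of 300, at a stop codon starting at base 27 of the exon and 636 bases before the last exon junction. The GPAT4 exon, at chr8:41619221-41619351 on the plus strand, is 131 bp long and matched no annotated exon exactly, although 1 retained-intron transcript has an exon that overlaps it. Placed between exons 12 and 13 of the reference transcript, it ended the frame after 438 codons, in place of 456, at a stop codon starting at base 53 of the exon and 76 bases before the last junction. The sequence on either side of all 5 exons was AG before and GT after the exon. These frames were read from the sequence, and no protein was measured. Among 165386 internal exons of annotated reference transcripts, 40.4% had a length that is a multiple of 3, which held for 3 of the 5 exons here.

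The tetramers were unevenly spread over the 5 exons. Counting overlapping matches on the transcribed strand, the LSR exon held 9, and 5.04% of the 674 annotated internal exons of its length held at least as many. The LSR exon was also rich in G and C, with a GC content of 61.4% against a median of 45.6% at its length. Its density of 15.8 tetramers per 100 bases compared with 11.7 in the exon before it and 12.9 in the exon after it. The GPAT4 exon, at 5.34 per 100 bases, lay below the exons before and after it, at 11.25 and 9.10. So did the COL4A3BP exon, at 1.28 against 3.23 and 7.29. The densities of the PLEKHA3 and DDHD1 exons lay between those of their neighbours. The exons after those of GPAT4 and DDHD1 are the last of their reference transcripts. At 4109 and 10195 bases, they are much longer than the exons they are compared with. In number of tetramers, the 4 exons other than that of LSR did not stand high. The GPAT4 exon held 7 tetramers, and 58.6% of 994 exons of its length held at least as many. The PLEKHA3 exon held 2, matched or passed by 62.0% of 300 exons. The DDHD1 exon, the poorest in G and C at 35.7%, also held 2, matched or passed by 88.1% of 1386 exons. The COL4A3BP exon held 1, at its last 4 bases, and 95.4% of the 1214 exons of its length held at least as many, the same share as held any. The tetramers are common: at least 1 was found in 85.0% of exons of the PLEKHA3 length and in 99.5% of exons of the GPAT4 length. A match is a description of these letters and not a measured binding site.

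**Figure D1:**
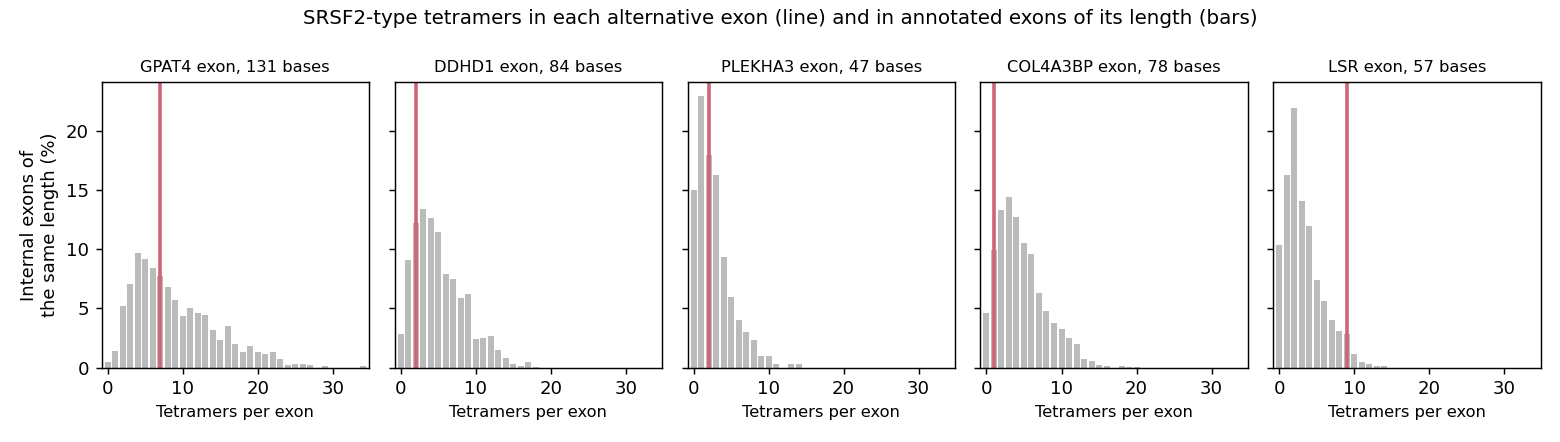
Number of SRSF2-type tetramers in each alternative exon, drawn as a red line, beside the percentage of annotated internal exons of the same length that hold each number, drawn as grey bars. The LSR line, at 9, lies in the right tail of its distribution, and the COL4A3BP line, at 1, lies near the left end.

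The si-NC library had 19931360 counts over 19882 genes, and the si-SRSF2 library had 14512802 over 19467. Values are in CPM, counts brought to a common library size, which was set by TMM, a method that takes it from the bulk of the genes. A limit of 3 counts, which a count of 0 allows, came to 0.151 CPM in control and 0.207 CPM in knockdown. The log2 ratio, knockdown over control, was taken after adding 0.5 CPM to each value. The 95% Clopper-Pearson interval printed beside it is that of the plain ratio, with nothing added, so the log2 ratio of a gene with few counts need not lie near its middle; it covers counting error only. SRSF2 itself had 1964 counts (98.5 CPM) in control and 713 counts (49.1 CPM) in knockdown, a log2 ratio of -0.997 (interval -1.13 to -0.88). The library labelled si-SRSF2 thus had the lower level of the targeted gene, at 49.9% of the control level.

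The labelled cell type was only partly visible in its markers. Of 13 colon epithelial markers, 4 reached a mean of 1 CPM, and the 13 summed to 79.5 CPM in control and 97.2 CPM in knockdown. KRT8, the most abundant of them by the mean of both libraries, had 27.4 CPM in control and 42.6 CPM in knockdown, and KRT18, EPCAM and the intestinal transcription factor CDX2 were the other 3 present. CDX1, KRT20, LGALS4 and MUC2 had 0 counts in both libraries, and CDH1, the gene of E-cadherin, had 10 counts in control and 6 in knockdown. None of 10 markers of fibroblasts, blood, endothelium, adipocytes or liver reached 1 CPM, the highest being COL1A1 with 13 counts in each library, and 5 were at 0 in both. Whether the higher KRT8 level has a part in any value of the 5 genes was not tested.

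All 5 genes passed the minimum of a mean of 1 CPM, as did 12620 genes in all. None was at least 1.5-fold higher in knockdown, against 4.18% of the 12620 genes, and none was at least 1.5-fold lower, against 3.52%. By direction alone, 2 of the 5 were higher in knockdown, against 46.2% of all genes, and 3 were lower, against 53.8%. The counting interval lay above no change for 1 member, where 21.0% of all genes had such an interval, and below no change for 3, where 26.7% did. The members' median log2 ratio was -0.081 and that of all genes -0.025. Their log2 ratios ran from -0.27 to 0.24, inside the range from -0.51 to 0.53 that spans the 5th to 95th percentile of all genes tested. Summed over the 5 genes, the level was 538.4 CPM in control and 506.0 CPM in knockdown.

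**Figure D2:**
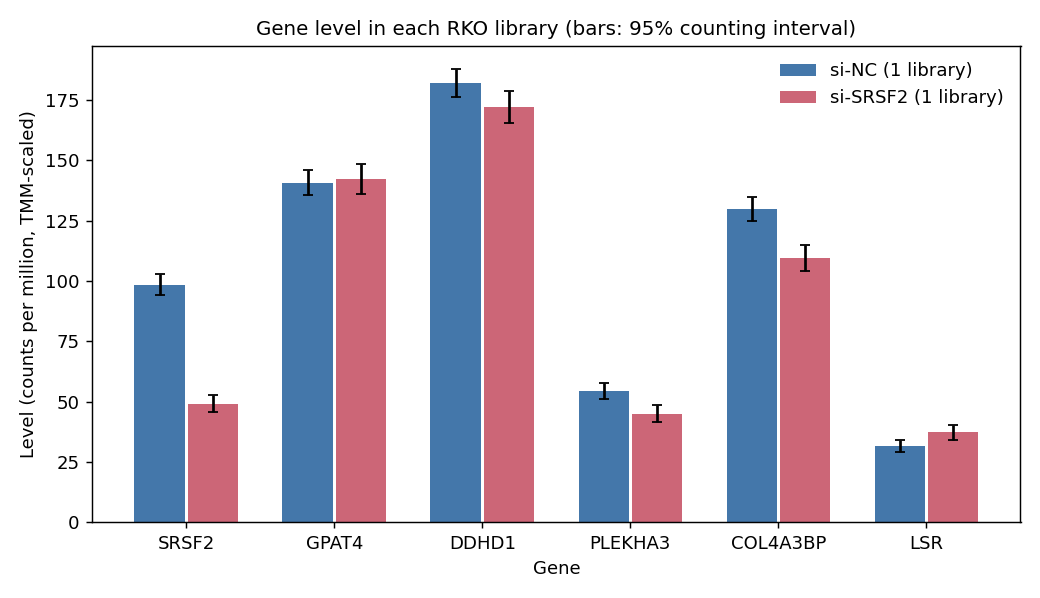
Level of SRSF2 and of the 5 lipid genes in CPM in the si-NC library (blue) and the si-SRSF2 library (red), 1 library each, with 95% counting intervals as error bars. SRSF2 was at 98.5 CPM in control and 49.1 CPM in knockdown, while none of the 5 lipid genes differed by 1.5-fold; heights are not corrected for gene length, so bars are to be compared within a gene.

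Per kb of reference transcript, the 5 genes had the same order in both libraries. COL4A3BP stood first, with 33.6 CPM per kb in control and 28.3 in knockdown. GPAT4 followed with 22.4 and 22.6 CPM per kb, LSR with 16.3 and 19.3, and DDHD1 with 14.1 and 13.3. PLEKHA3 was lowest, with 3.90 and 3.24 CPM per kb over a reference transcript of 13.9 kb. The 95% counting intervals of neighbours in this order did not overlap in either library. The closest pair was LSR and DDHD1 in control, with intervals of 15.0 to 17.6 and 13.6 to 14.5 CPM per kb. Isoforms of other lengths would change these levels.

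GPAT4 encodes the acyltransferase of the endoplasmic reticulum and lipid droplets that joins the first fatty acid to glycerol 3-phosphate. It had 2807 counts (140.8 CPM) in control and 2063 counts (142.1 CPM) in knockdown, a log2 ratio of 0.013 (interval -0.069 to 0.096). The GPAT4 level was thus nearly equal in the libraries, and the interval bounds any difference between them to within 95.3% and 106.9% of the control level, counting error only. Its paralogues were measured beside it. GPAT3, the closest relative, had 35.7 CPM in control and 25.2 CPM in knockdown, a log2 ratio of -0.49 (interval -0.69 to -0.32). GPAM, the mitochondrial enzyme, had 28.4 CPM in control and 31.0 CPM in knockdown, and the interval of its log2 ratio of 0.12 spanned 0. GPAT3 was therefore lower in knockdown, while for GPAM no difference could be detected at this depth, and GPAT2 had 0 counts in both libraries. Per kb, GPAT4 had the highest level of the 4 acyltransferases in each library, ahead of GPAT3 with 12.2 CPM per kb in control and 8.61 in knockdown.

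DDHD1 encodes a cytosolic phospholipase A1 that prefers phosphatidic acid, the lipid made downstream of GPAT4. It had 3628 counts (182.0 CPM) in control and 2497 counts (172.0 CPM) in knockdown, a log2 ratio of -0.081 (interval -0.16 to -0.0076). The level was slightly lower in knockdown, and the interval lay close to 0; with upper-quartile factors, or with library totals without the mitochondrial and the 20 most abundant genes, it included 0. DDHD2, a related lipase that acts on triglycerides, had 127.6 CPM in control and 117.1 CPM in knockdown, a log2 ratio of -0.12 (interval -0.21 to -0.036). SEC23IP, the third protein of this family, had 87.4 CPM in control and 76.1 CPM in knockdown, a log2 ratio of -0.20 (interval -0.31 to -0.089). All 3 family members were thus lower in the knockdown library, by less than 1.5-fold each.

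PLEKHA3, also known as FAPP1, encodes a protein whose pleckstrin homology domain binds PI4P at the trans-Golgi. It had 1081 counts (54.2 CPM) in control and 653 counts (45.0 CPM) in knockdown, a log2 ratio of -0.27 (interval -0.41 to -0.13). This was the lowest ratio of the 5 genes, at percentile 17.6 of all genes tested, and left 82.9% of the control level. Its paralogue PLEKHA8 (FAPP2), which carries glucosylceramide, had 133.2 CPM in control and 110.5 CPM in knockdown, a log2 ratio of -0.27 (interval -0.36 to -0.18). Both paralogues were lower in knockdown, to a like extent. SACM1L, the phosphatase that removes the phosphate of PI4P and a partner of PLEKHA3, had 56.8 CPM in control and 40.6 CPM in knockdown, with a log2 ratio of -0.48 (interval -0.63 to -0.34). Whether the exon with the early stop codon has a part in the PLEKHA3 level was not tested.

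COL4A3BP encodes the carrier of ceramide from the endoplasmic reticulum to the trans-Golgi, which binds PI4P through one part and the proteins VAPA and VAPB through another. It had 2588 counts (129.9 CPM) in control and 1591 counts (109.6 CPM) in knockdown, a log2 ratio of -0.24 (interval -0.34 to -0.15). The level was lower in knockdown, at 84.4% of the control level and percentile 19.8 of all genes tested. VAPA, which is not 1 of the 5 members although the study lists an exon of it too, had 174.1 CPM in control and 149.5 CPM in knockdown, a log2 ratio of -0.22 (interval -0.30 to -0.14). VAPB had 94.1 CPM in control and 95.3 CPM in knockdown, with an interval that spanned 0. VAPA was thus lower in knockdown, and no difference of VAPB could be detected. Of the enzymes that use ceramide in the Golgi, the sphingomyelin synthase SGMS2 had 56.1 CPM in control and 49.5 CPM in knockdown, a log2 ratio of -0.18 (interval -0.32 to -0.045). SGMS1, the other synthase, had 23.2 CPM in control and 21.3 CPM in knockdown, and the glucosylceramide synthase UGCG had 233.3 CPM in control and 242.7 CPM in knockdown, each with an interval that spanned 0, although that of UGCG lay above 0 under the same 2 scalings that moved DDHD1. SGMS2 was the only one of these 3 enzymes with an interval below no change. In GENCODE the COL4A3BP gene overlaps other genes on the opposite strand, among them POLK over 294 bp. POLK had 1798 counts in control and 1189 in knockdown. The strand setting of the counting is not given in the sources used here, so reads from the shared stretches could not be told apart.

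LSR encodes the lipolysis-stimulated lipoprotein receptor, which takes up triglyceride-rich lipoproteins and also organises the junctions where 3 epithelial cells meet. It had 627 counts (31.5 CPM) in control and 540 counts (37.2 CPM) in knockdown, a log2 ratio of 0.24 (interval 0.073 to 0.41). LSR was the only member with a higher level in knockdown beyond counting error, at 118.3% of the control level and percentile 83.2 of all genes tested. Its counting interval did not overlap those of PLEKHA3, DDHD1 and COL4A3BP, but did overlap that of GPAT4. Its paralogue ILDR2 had 33.3 CPM in control and 34.7 CPM in knockdown, with an interval that spanned 0, and ILDR1 had 0 counts in both libraries. MARVELD2, the gene of tricellulin, which LSR brings to these junctions, had 23 counts (1.15 CPM) in control and 32 counts (2.20 CPM) in knockdown. Its log2 ratio of 0.71 was higher in knockdown but rests on few counts, and the interval of the plain ratio ran from 0.12 to 1.77.

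**Figure D3:**
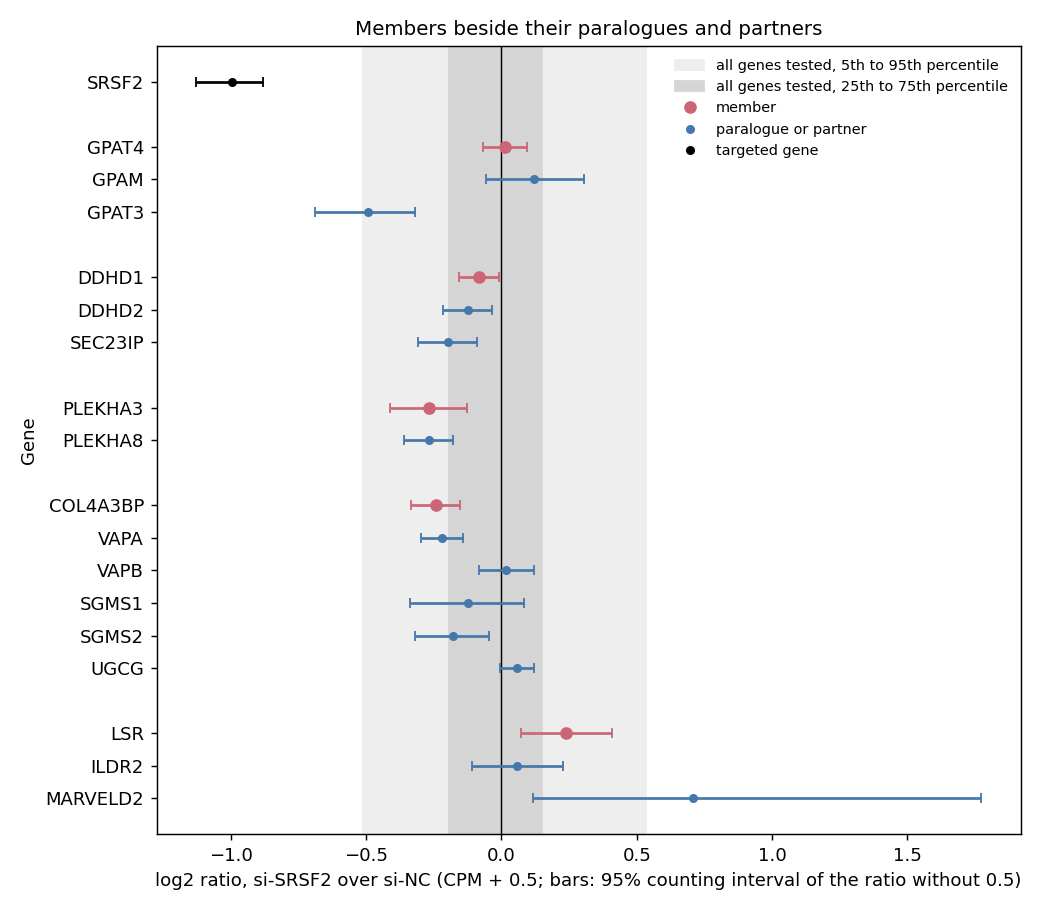
Log2 ratio of knockdown (si-SRSF2) over control (si-NC), on CPM plus 0.5, with the 95% counting interval of the ratio without the added 0.5, for SRSF2 (black), the 5 members (red) and their paralogues and partners (blue), 1 library per group; grey bands span the 25th to 75th and the 5th to 95th percentile of all 12620 genes tested. The members lie between -0.27 and 0.24, SRSF2 at -0.997, and GPAT3 at -0.49.

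The other genes of each member's pathway were taken from lists, in which the members are counted too. The sterol and fatty acid synthesis list, which holds no member, is counted among the lists and described last. Not all of the listed genes are lipid genes, since the lists also hold the kinases and the phosphatase that act on CERT and the genes of tricellular junctions, such as MARVELD2. Across all 9 lists, 196 of 235 genes reached a mean of 1 CPM, 39 did not, and 12 had 0 counts in both libraries. Of the 196, 4 were at least 1.5-fold higher and 9 at least 1.5-fold lower in knockdown, against 4.18% and 3.52% of all genes tested. By direction alone 63 were higher and 133 lower, against 46.2% and 53.8% of all genes, and the median log2 ratio was -0.12 against -0.025 over all genes tested. Of these, the sterol and fatty acid synthesis list gave 5 of the higher and 33 of the lower genes. The counting interval lay above no change for 29 and below it for 93, against 21.0% and 26.7% of all genes. These shares carry no test.

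In the glycerolipid synthesis list, 9 of 20 genes were higher and 11 lower, with a median log2 ratio of -0.087. AGPAT4, which adds a second fatty acid to lysophosphatidic acid, had 14.4 CPM in control and 7.37 CPM in knockdown, a log2 ratio of -0.92 (interval -1.30 to -0.64). LPIN1, the phosphatase that turns phosphatidic acid into diacylglycerol, had 396.6 CPM in control and 264.1 CPM in knockdown, a log2 ratio of -0.59 (interval -0.64 to -0.53) that sat at the 1.5-fold threshold. Both enzymes were lower in knockdown, as was the hormone-sensitive lipase gene LIPE, with 9.38 CPM in control and 5.86 CPM in knockdown. ABHD5, the activator of the lipid droplet lipase PNPLA2, was the 1 gene at least 1.5-fold higher, with 37.6 CPM in control and 58.5 CPM in knockdown. The lipid droplet coat gene PLIN3 was also higher, with 72.4 CPM in control and 93.9 CPM in knockdown.

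In the list of phospholipases and phosphatidic acid enzymes, which holds DDHD1, 11 of 31 genes were higher and 20 lower, with a median log2 ratio of -0.078. DGKH, a kinase that makes phosphatidic acid from diacylglycerol, had 164.6 CPM in control and 100.2 CPM in knockdown, a log2 ratio of -0.71 (interval -0.81 to -0.63). The lipid phosphatase gene PLPP3 had 6.47 CPM in control and 4.07 CPM in knockdown. These were the 2 genes at least 1.5-fold lower, and PLA2G6, a calcium-independent phospholipase A2, was the 1 at least 1.5-fold higher, with 9.23 CPM in control and 15.1 CPM in knockdown. With a pseudocount of 2 CPM, PLPP3 no longer passed 1.5-fold. The secreted phospholipase gene PLA2G12A had 32.8 CPM in control and 40.4 CPM in knockdown. In phospholipid head group synthesis, 8 of 19 genes were higher and 11 lower, with a median log2 ratio of -0.026. PCYT1A, the regulated enzyme of phosphatidylcholine synthesis, had the highest log2 ratio of this list at 0.47, and PISD, which makes phosphatidylethanolamine in mitochondria, had 0.19. CDS1, which makes CDP-diacylglycerol, had a log2 ratio of -0.45 and the ethanolamine kinase gene ETNK1 one of -0.43. ETNK2 was the 1 gene of the list at least 1.5-fold lower, at 43 counts in control and 12 in knockdown; it was picked out after its value was seen.

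In the list of PI4P and trans-Golgi lipid transfer, 9 of 28 genes were higher and 19 lower, with a median log2 ratio of -0.13, and PLEKHA3 lay on the lower side of that median. GOLPH3L, a Golgi protein that binds PI4P, had 64.3 CPM in control and 45.7 CPM in knockdown. EFR3A, which anchors a kinase that makes PI4P at the plasma membrane, had 136.5 CPM in control and 199.4 CPM in knockdown, a log2 ratio of 0.54 (interval 0.47 to 0.62). GOLPH3L was lower and EFR3A higher in knockdown, and the phosphatidylinositol transfer gene PITPNM3 had an interval that spanned 0. The list's 1 gene at least 1.5-fold lower was EFR3B, with 57 counts in control and 20 in knockdown, picked out after its value was seen.

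In the ceramide and sphingolipid list, which holds COL4A3BP, 9 of 29 genes were higher and 20 lower, with a median log2 ratio of -0.16, and none reached 1.5-fold in either direction under TMM scaling. GBA2, which splits glucosylceramide outside the lysosome, had 97.3 CPM in control and 68.4 CPM in knockdown, a log2 ratio of -0.50 (interval -0.62 to -0.40). The ceramidase gene ACER3 had 45.1 CPM in control and 33.2 CPM in knockdown. B4GALT6, which makes lactosylceramide, had 121.3 CPM in control and 181.3 CPM in knockdown, a log2 ratio of 0.58 (interval 0.50 to 0.66). It passed 1.5-fold with upper-quartile factors, at 0.60, and with totals without the mitochondrial and most abundant genes, at 0.59. GBA2 and ACER3 were thus lower and B4GALT6 higher in knockdown, while the interval of the sphingosine kinase gene SPHK2 spanned 0. Among the CERT partners and regulators, 5 of 9 genes were higher and 4 lower, with a median log2 ratio of 0.018. Phosphorylation of its serine-rich stretch is known to hold CERT inactive. PRKD2, a relative of the kinase that starts this phosphorylation, had 42.5 CPM in control and 51.3 CPM in knockdown, and CSNK1G1, of the casein kinase family that extends it, had 47.8 and 67.7 CPM. PPM1L, a phosphatase that reverses it, had 32.7 CPM in control and 25.2 CPM in knockdown, a log2 ratio of -0.37 (interval -0.56 to -0.19). PRKD2 and CSNK1G1 had the 2 highest ratios of the list and PPM1L the lowest, and the other kinases of these families differed among themselves. CSNK1G3 had a log2 ratio of 0.20 (interval 0.096 to 0.31). The log2 ratio was 0.041 for CSNK1G2 (interval -0.081 to 0.16) and -0.013 for PRKD3 (interval -0.14 to 0.11), both spanning 0, and PRKD1 had 4 counts in control and 2 in knockdown. The phosphorylation of CERT was not measured.

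In the lipoprotein receptor list, 6 of 15 genes were higher and 9 lower, with a median log2 ratio of -0.12. LSR had the highest ratio among those with a mean of at least 5 CPM. LRP1, a large receptor of remnant lipoproteins, had 332.9 CPM in control and 384.4 CPM in knockdown, a log2 ratio of 0.21 (interval 0.16 to 0.26). Both LRP1 and LSR were thus higher in knockdown. The 1 gene at least 1.5-fold higher was LRP6, with 27 counts in control and 52 in knockdown, picked out after its value was seen. In the tricellular junction list, 3 of 10 genes were higher and 7 lower, with a median log2 ratio of -0.15; without the minimum on CPM the median was 0.019. Cingulin (CGN) had 31.3 CPM in control and 23.2 CPM in knockdown, the lowest ratio of the list. LSR, ILDR2 and MARVELD2 were the 3 of the 10 genes past that minimum with a ratio above 0.

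**Figure D4:**
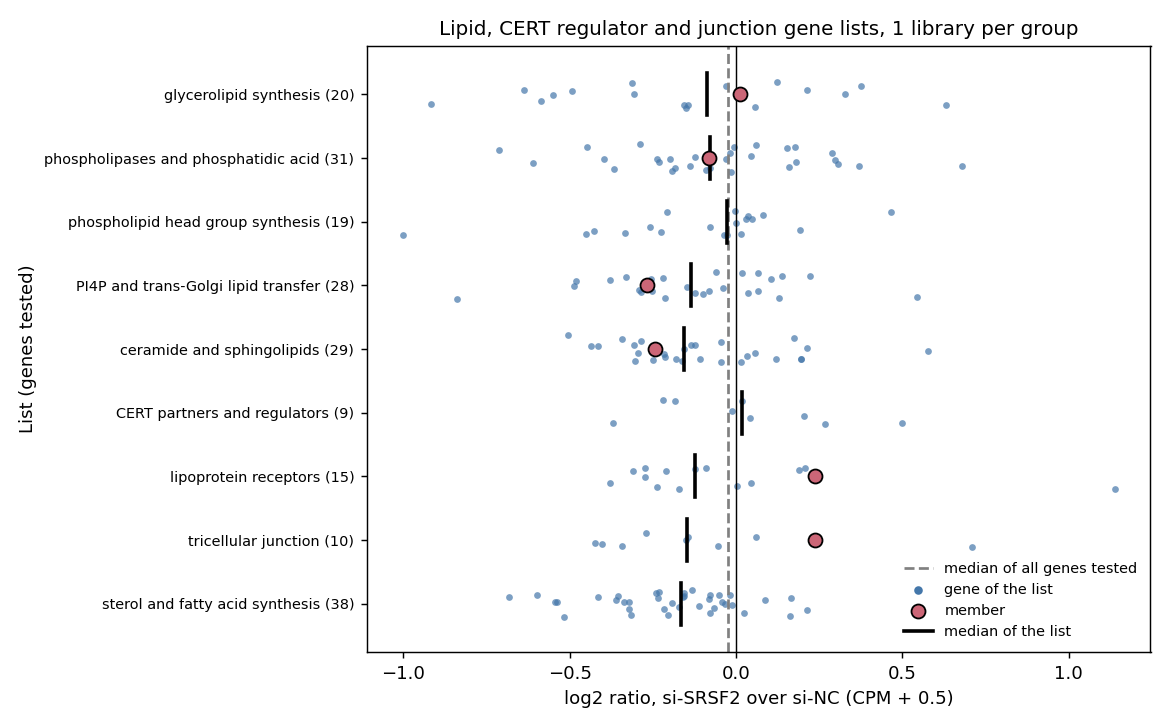
Log2 ratio of knockdown (si-SRSF2) over control (si-NC), on CPM plus 0.5, of each gene with a mean of at least 1 CPM in the 9 lists, 1 library per group; the number of genes is in brackets, large red points are the members, black bars the list medians, and the dashed line the median of all genes tested, -0.025. LSR lies right of the median in both of its lists, and PLEKHA3 and COL4A3BP lie left of the median in theirs.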

How the data were processed

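The authors prepared 1 stranded poly(A) library per group, sequenced it in paired-end mode and deposited raw counts per gene, listed by symbol, made with HTSeq from reads aligned to GRCh38 (HISAT2 2.0.4, per the submitters' processing notes). The strand setting of the counting is not given in the sources used here. Library sizes came from the TMM method of edgeR 4.0.16 under R 4.3.3. CPM, log2 ratios (pseudocount 0.5 CPM) and 95% Clopper-Pearson intervals (of ratios with no pseudocount) were computed in Python 3.11.15 with SciPy 1.17.1, for genes averaging 1 CPM or more. The calculations were tested on simulated data. With 1 library per group no test was run. Exon positions came from the study's list of exons, and frames, lengths and sequences from GENCODE release 44 on GRCh38. COL4A3BP was matched to CERT1 by a RefSeq synonym.

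Named genes were SRSF2, the 5 members, their paralogues and partners, and in each list those averaging 5 CPM or more that were 1.5-fold changed or had the 2 highest or 2 lowest ratios. Some genes that this rule names are not reported here. The members and lists were chosen with earlier results of these data known. The alternatives tried were upper-quartile factors, total counts, size factors from DESeq2 1.42.0, totals without mitochondrial and the 20 most abundant genes, pseudocounts of 0.1 and 2 CPM, no minimum, a minimum of 5 CPM, and a 2-fold threshold. Junction reads were not analysed here.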

Additional observations from a re-analysis of the deposited data

How the results depend on the processing

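No paired analysis was possible because there was only 1 library per group, and for the same reason no replicate could be left out. Under the other 4 scalings and both other pseudocounts, all 36 recomputed ratios of SRSF2 and the 5 members kept their sign and stayed inside their counting intervals; SRSF2 ranged from -1.003 to -0.973, GPAT4 from 0.013 to 0.038, DDHD1 from -0.081 to -0.057, PLEKHA3 from -0.27 to -0.24, COL4A3BP from -0.24 to -0.22 and LSR from 0.23 to 0.26. The DDHD1 interval reached 0.017 with upper-quartile factors and 0.0019 with totals without the mitochondrial and most abundant genes, so that 2 of the 5 intervals then spanned 0. The list medians kept their sign, except that of the tricellular junction list without a minimum (0.019). Upper-quartile factors moved the median of all genes most, to -0.0014.

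Counts of genes past the fold depended on the threshold, the minimum and the pseudocount, and genes near the threshold on the scaling. With a pseudocount of 2 CPM, 254 of all genes were at least 1.5-fold higher and 220 lower, and 4 of the listed genes were lower. With no minimum, the counts were 1262 higher and 837 lower, with 8 listed genes higher. With a minimum of 5 CPM they were 202 higher and 237 lower, with 2 listed genes higher. At 2-fold they were 107 higher and 63 lower, with 1 listed gene in each direction. Upper-quartile factors left 5 listed genes higher and 7 lower, with B4GALT6 gained and SQLE and LPIN1 lost. Totals without the mitochondrial and most abundant genes left 6 higher and 9 lower, with B4GALT6 gained and LPIN1 lost among the named genes. LPIN1, LIPE, PLPP3, EFR3B, ETNK2 and MARVELD2 were lost with a pseudocount of 2 CPM. The stricter minimum tests fewer genes; the cause of the other differences was not tested. Depth limits MARVELD2, LRP6, ETNK2 and EFR3B, each with at most 57 counts in a library.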

Other observations

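Genes of sterol and fatty acid synthesis, the pathway controlled by the SREBP transcription factors, were mostly lower in the knockdown library. Of the 38 measured genes of this list, 33 had a lower level in knockdown and 5 a higher one, against 53.8% lower among all genes tested, and the median log2 ratio was -0.17. The counting interval lay below no change for 25 and above it for 2, against 26.7% and 21.0% of all genes tested. With upper-quartile factors, 31 were lower and 21 intervals lay below no change. SQLE, the squalene epoxidase gene, had 263.9 CPM in control and 174.2 CPM in knockdown, a log2 ratio of -0.60 (interval -0.67 to -0.53). MBTPS2, the protease that releases SREBP within the membrane, had 51.5 CPM in control and 31.9 CPM in knockdown, a log2 ratio of -0.68 (interval -0.85 to -0.53). These were the 2 genes at least 1.5-fold lower, and none was at least 1.5-fold higher; with upper-quartile factors the log2 ratio of SQLE was -0.57, inside 1.5-fold. MBTPS1, the protease that makes the first cut, had 118.6 CPM in control and 133.0 CPM in knockdown, and the fatty acid activating enzyme gene ACSL5 had 19.1 and 22.3 CPM. Both were thus higher in knockdown, by less than 1.5-fold. The interval of the log2 ratio was 0.079 to 0.25 for MBTPS1, while that of ACSL5, 0.00088 to 0.44, all but reached no change. With 1 library per group, the part of the transfection in these values cannot be told apart from that of the knockdown.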
